A study of Mus musculus with 10 samples.

Results

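The shared response of both cholangitis models is described here: the genes whose level in the liver moved by a similar amount in 2 mouse models of bile duct inflammation. All livers came from C57BL/6 mice described as wild type and were collected at day 35. The PBC group (n = 3 mice, libraries 7, 8 and 9) stands for primary biliary cholangitis, the autoimmune model. A conjugate of BSA and 2-octynoic acid, at 100 µg, was given to these mice by intraperitoneal injection in complete and later incomplete Freund's adjuvant, and the mice also received 2 µg of α-galactosylceramide, a glycolipid that activates natural killer T cells. The PSC group (n = 3 mice, libraries 11, 13 and 14) stands for primary sclerosing cholangitis, the non-autoimmune model, in which the food held 0.089% of DDC, a porphyrinogenic compound, in 2 periods separated by normal food. The Control group (n = 4 mice, libraries 1 to 4) is labelled untreated, so the labels name no adjuvant, glycolipid or DDC for it. Neither age nor sex of the mice is stated in the labels.

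A gene counted as shared when it was called in the mean of both models against Control (limma, Benjamini-Hochberg adjusted p under 0.05), when that mean moved by at least 1 on the log2(value + 1) scale, and when the estimates of PBC and PSC lay within 1.5-fold of each other. Each model had equal weight in the mean. Of 18390 tested gene models, 865 met this rule, 592 of them higher and 273 lower in the models. A point estimate within 1.5-fold does not show that the models act alike. The 95% confidence interval of the PBC minus PSC difference lay within 2-fold either way for 336 of the 865 genes.

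Bile duct injury of any origin is known to reach the whole liver. Cytokines from macrophages and injured epithelium act on hepatocytes through STAT3, C/EBP and NF-kB factors, and hepatocytes answer with the acute phase response, a large release of plasma proteins that bind heme, iron, lipids and microbes. Around the ducts, monocytes and dendritic cells gather, stellate cells and portal fibroblasts lay down matrix, and the ductular epithelium expands.

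Depth ranged from 38.3 to 95.4 M (mega) recovered reads per library, and the share of mitochondrial reads was 5.13 to 8.67% except in Control 2, with 13.7%. In a principal component analysis of the 1000 most variable genes each library lay nearest to a library of its own group. The hepatocyte genes Alb (albumin) and Ttr (transthyretin) were not called and had mean changes of -0.19 and -0.47 in log2 units. Of 21 genes for proteins that hepatocytes secrete, 2 were called higher (9.52%), near the 10.3% of all tested genes. The summed level of these 21 genes was 1.11e+07 to 1.25e+07 normalized reads in the controls and 1.08e+07 to 1.59e+07 in PBC. In PSC it was 8.20e+06 to 9.86e+06, below every control, so the mean of both models does not describe each model here. These are bulk livers, so more cells of a type and more RNA per cell cannot be told apart in any result below.

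PBC 8 stood apart for the falls. The median change of the 273 shared falls over the control mean was -0.29 in PBC 8, against -1.47 in PBC 7, -1.65 in PBC 9 and -1.40, -1.22 and -1.503 in the PSC livers. For the 592 shared rises PBC 8 was like the others, with a median of 1.502 among livers at 1.33 to 1.61. Without PBC 8 the rule found 715 shared falls and 647 shared rises.

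The changes also followed the base composition of the transcripts. Quintiles were formed from genes with a GENCODE transcript and a control mean of at least 50 normalized reads, a narrower set than all tested genes. In the quintile of these genes with the lowest GC content, 19.5% were called lower and 4.76% higher. In the quintile with the highest GC content 1.01% were called lower and 21.4% higher. The median transcript of the shared falls had 42.8% GC and 4254 bases, that of the shared rises 52.8% GC and 2822 bases, and that of all tested genes 49.7% GC and 3222 bases, over the 97.4%, 97.0% and 95.6% of symbols with a GENCODE transcript. In the lowest quintile the median gene was at -0.36 in PBC 7, -0.05 in PBC 8, -0.52 in PBC 9 and -0.29, -0.31 and -0.34 in the PSC livers, and in the highest quintile these medians were 0.37, 0.22, 0.50, 0.25, 0.30 and 0.33. The controls stayed between -0.10 and 0.06 in both. After the trend of each library on GC content and transcript length was removed, an alternative chosen after seeing the data, 467 of 519 shared rises and 206 of 226 shared falls with a transcript were still called in the same direction, but 337 and 99 of them still met the whole rule. The part of base composition in the results was not tested beyond this correction.

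**Figure D1:**
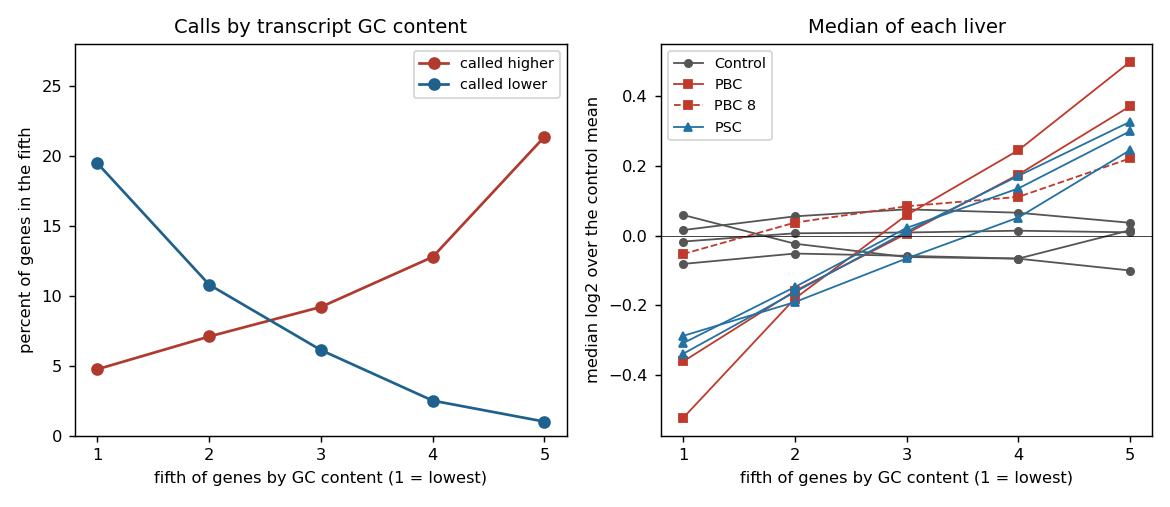
Left, percent of genes called higher or lower (y axis) in each quintile of genes by transcript GC content (x axis). Only genes with a GENCODE transcript and a control mean of at least 50 normalized reads are included. Right, median log2 level over the control mean of each liver in the same quintiles. The 6 model livers rise from the lowest to the highest quintile, PBC 8 (dashed) the least at the lowest quintile, while the controls stay near 0.

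Over all tested genes, 1899 were called higher (10.3%) and 1089 lower (5.92%) in the mean of both models. The shared rises are 3.22% and the shared falls 1.48% of all tested genes. All 6 model livers lay above all 4 controls in 1311 genes (7.13%) and below them in 575 (3.13%). Among the shared genes, whose rule used this contrast, the groups did not overlap in 495 of 592 rises and 124 of 273 falls. PBC and PSC differed from each other in 412 genes (2.24%), and 226 of these were also called in the mean. Among called genes with a mean change of at least 1, 671 rises and 265 falls were not shared. The number of falls rested on single livers. Shared falls numbered 112 without PBC 9, 162 without PBC 7 and 176 without Control 1. Calls lower numbered 420 without Control 1, 615 without Control 4, 673, 2230 and 576 without PBC 7, 8 and 9, and 620, 699 and 481 without PSC 11, 13 and 14. The 336 genes with a bounded difference became 213, 592 and 210 without PBC 7, 8 and 9, and 186 and 207 without PSC 11 and 14. The 226 called genes in which the models differ became 127 without PBC 7, and 113, 81 and 64 without PSC 11, 13 and 14. Calls higher and shared rises stayed within 1.5 times of their number whichever library was left out, from 1272 to 2461 and from 450 to 647.

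**Figure D2:**
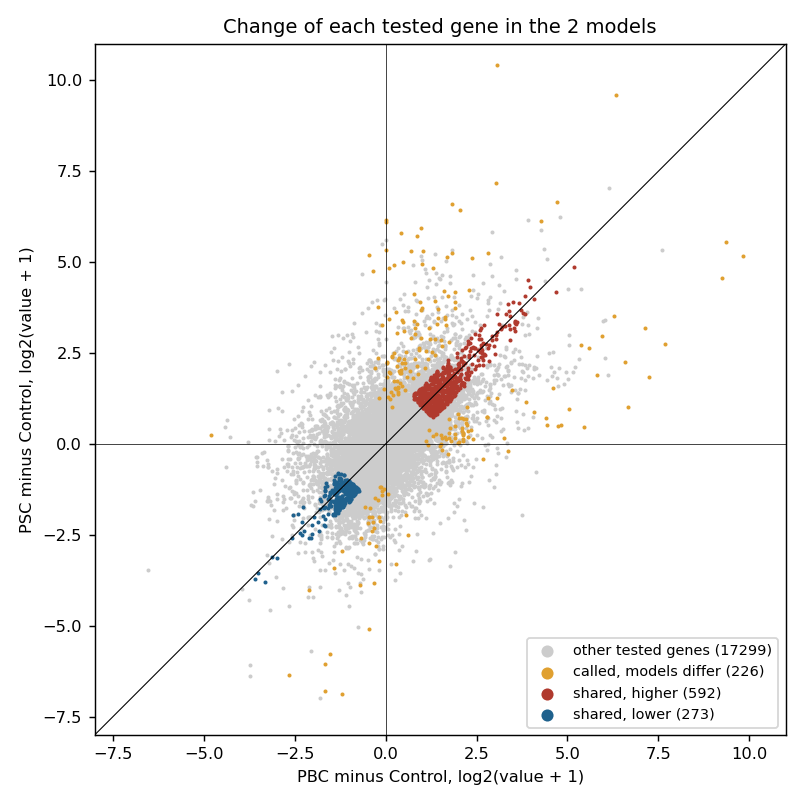
Change of each tested gene in PBC against Control (x axis) and PSC against Control (y axis), in log2(value + 1). Both axes share the 4 controls. Shared rises (592) and falls (273) lie along the diagonal by their rule, and the 226 called genes in which the models differ lie off it.

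Acute phase genes were the fullest shared group. Of 22 tested genes, 20 were called higher and 0 lower, 13 were shared and 0 differed between the models, beside 10.3% called higher over all genes. The shares over all tested genes, 10.3% called higher, 5.92% lower and 3.22% shared rises, are the background for every list below. The median change was 1.42 in the mean, 1.44 in PBC and 1.52 in PSC, against 0.03, 0.01 and 0.06 over all tested genes. Shared calls among the 22 were 11 without PBC 8 and 12 with the GC trend removed.

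The largest shared rise among genes with separate groups, an established symbol and a mean of at least 50 normalized reads was Orm2. This gene encodes an orosomucoid (α1-acid glycoprotein) that binds drugs and dampens inflammation, and lies at chr4:63362449-63365878 in mm10. It had 2798, 1235, 1612 and 1612 normalized reads in Control 1 to 4, 74138, 53237 and 62623 in PBC 7 to 9 and 108767, 24803 and 47311 in PSC 11, 13 and 14. Every model liver exceeded every control, which was a condition for the choice of the 10 largest rises, Orm3 and Saa3 among them. The mean change was 5.02 (SE 0.34) with an adjusted p of 3.28e-06. PBC and PSC changed by 5.18 and 4.86, and the interval of their difference was -0.60 to 1.24 in log2 units, which reaches beyond 2-fold. With the GC trend removed the models were 5.24 and 4.59, just outside the 1.5-fold limit.

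Its neighbour Orm3 had 584, 276, 646 and 237 normalized reads in Control 1 to 4, 7030.1, 4071 and 10466 in PBC 7 to 9 and 9055, 4407 and 6273 in PSC 11, 13 and 14. The groups did not overlap and the mean change was 4.03 (SE 0.34), with 4.07 in PBC and 3.99 in PSC. Orm1, the third orosomucoid gene, had 104914 to 233132 normalized reads in the controls, 257401 to 451580.0 in PBC and 308986 to 535753 in PSC, a mean change of 1.37 (SE 0.27). These genes are near-identical copies, and the labels do not say how reads shared between copies were counted, so the split among them is uncertain.

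Saa3, a serum amyloid A gene that macrophages are known to express as well, had 750.0, 732, 2296 and 657 normalized reads in Control 1 to 4, 19447, 7061 and 14622 in PBC 7 to 9 and 15769.6, 6104 and 19175 in PSC 11, 13 and 14. Control 3 was the highest of the controls and still below every model liver. The mean change was 3.70 (SE 0.41), with a PBC minus PSC difference of 0.04 (interval -1.07 to 1.15).

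Haptoglobin (Hp), which binds free hemoglobin, had 253148, 219071, 243493 and 231175 normalized reads in Control 1 to 4, 1045330.0, 890460.0 and 1082390.0 in PBC 7 to 9 and 1302120.0, 984110.0 and 1418940.0 in PSC 11, 13 and 14. The groups lay far apart. Its mean change was 2.23 (SE 0.21) and the difference between models was -0.28, with an interval of -0.87 to 0.30 that lies within 2-fold. Hemopexin (Hpx), the binder of free heme, had 452673 to 674781 normalized reads in the controls, 1557100.0 to 1970680.0 in PBC and 1393710.0 to 1984850.0 in PSC, and moved by 1.77 and 1.74. Lbp, the carrier of bacterial lipopolysaccharide, moved by 1.89 and 1.61, and ceruloplasmin (Cp), a copper-bearing ferroxidase, by 1.41 and 1.53. Itih4 and Itih3, inter-α-trypsin inhibitor chains that lie side by side on chromosome 14, moved by 1.55 and 1.46 in PBC and by 0.998 and 1.05 in PSC. For Itih4 the interval of the difference, 0.03 to 1.06, excludes 0. Serpina3n, a protease inhibitor, Apcs (serum amyloid P) and Steap4, a metalloreductase, were the other shared members, with mean changes of 1.21, 1.03 and 1.02.

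Lcn2, the siderophore binder lipocalin 2, is not in the shared set and had 1363, 393, 488 and 261 normalized reads in Control 1 to 4, 39888, 20964 and 55577 in PBC 7 to 9 and 114643, 33612 and 80894 in PSC 11, 13 and 14. It moved by 6.13 in PBC and 7.05 in PSC, with a difference of -0.92 (adjusted p 0.391). Saa1 moved by 4.28 and 5.88, a difference of -1.60 (adjusted p 0.129). The fibrinogen genes Fga and Fgb were called at 0.91 and 0.83, while Fgg (0.83) and the iron hormone gene Hamp (-0.47) were not called.

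The starts of Orm2, Orm3 and Saa3 are shown because these genes gave the largest shared acute phase rises and each holds a match to the C/EBP motif TTGCNNAA. The 160 bases before each gene start are given 5′ to 3′ on the gene's strand, from RefSeq (GRCm38.p6), with the match in capitals. A match on either strand counts.

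Orm2 (chr4:63362289-63362448, plus strand): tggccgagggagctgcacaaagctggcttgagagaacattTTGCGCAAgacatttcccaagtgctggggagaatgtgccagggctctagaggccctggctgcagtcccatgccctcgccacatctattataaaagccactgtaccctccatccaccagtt

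Orm3 (chr4:63355998-63356157, plus strand): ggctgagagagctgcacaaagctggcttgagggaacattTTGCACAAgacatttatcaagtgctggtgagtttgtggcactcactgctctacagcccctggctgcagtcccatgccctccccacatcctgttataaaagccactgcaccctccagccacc

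Saa3 (chr7:46715677-46715836, minus strand): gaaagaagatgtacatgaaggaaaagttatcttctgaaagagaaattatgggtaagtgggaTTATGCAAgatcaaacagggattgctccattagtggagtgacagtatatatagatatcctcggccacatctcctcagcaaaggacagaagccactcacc

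Within 250 bases before the start, TTGCNNAA was found in 6 of the 10 shared acute phase genes with a promoter sequence (60%), in 13.6% of 403 shared rises, in 9.38% of 192 shared falls and in 9.63% of 11035 tested genes. The STAT motif TTCNNNGAA was found in 30%, 8.19%, 8.85% and 7.41% of the same sets, and the AP-1 motif TGANTCA in 30%, 9.68%, 6.77% and 6.11%. The Orm copies share sequence, so their matches are not independent. These are matches of letters and say nothing on binding.

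**Figure D3:**
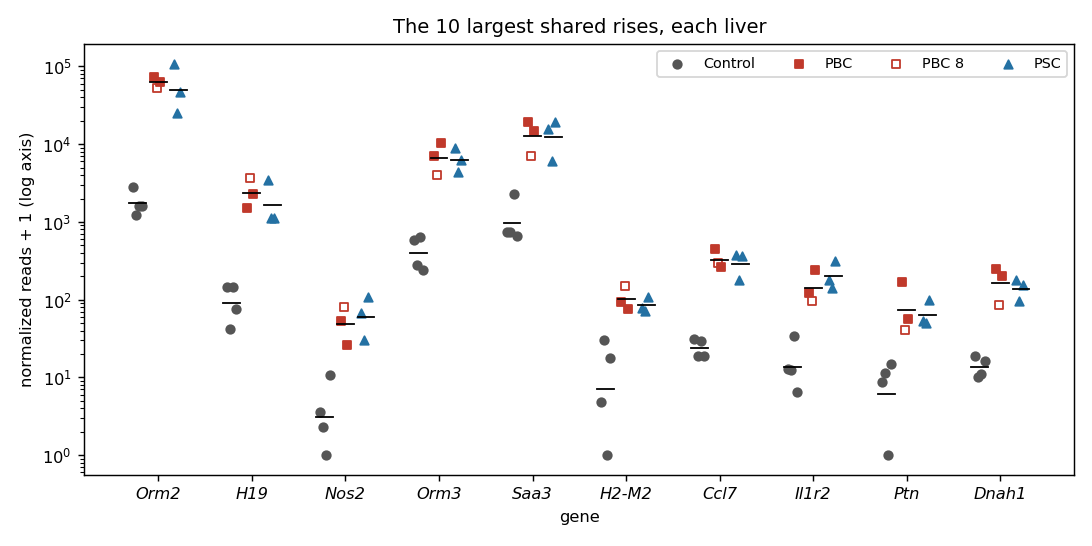
Normalized reads + 1 of the 10 largest shared rises among those with separate groups, an established symbol and a mean of at least 50 normalized reads (log y axis) in each liver, with the line at the mean of log2 values per group. The separation of models and controls was a condition of the choice, and PBC 8 is drawn with an open symbol.

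The remaining large rises held genes of macrophage activation and genes with no common role. H19, an imprinted RNA abundant in fetal liver, had 145, 41.1, 143 and 75.0 normalized reads in Control 1 to 4, 1495, 3668 and 2313 in PBC 7 to 9 and 3484, 1137 and 1113 in PSC 11, 13 and 14. The mean change was 4.43 (SE 0.41), with the groups apart by the condition of the choice. Nos2, the inducible nitric oxide synthase of activated macrophages, had 2.59, 1.28, 0 and 9.72 normalized reads in Control 1 to 4, 52.2, 79.7 and 25.4 in PBC 7 to 9 and 66.6, 29.1 and 108 in PSC 11, 13 and 14. Its mean change was 4.15 (SE 0.66) and 4.75 without Control 4, whose 9.72 was the highest control value. Il1r2, the decoy receptor of interleukin 1, had 11.7, 11.6, 33.2 and 5.55 normalized reads in Control 1 to 4, 119, 94.0 and 243 in PBC 7 to 9 and 176, 141 and 312 in PSC 11, 13 and 14, with a mean change of 3.61 (SE 0.45). H2-M2, a non-classical class I gene, moved by 3.70, but by 4.39 without Control 2 and 2.75 without Control 3, since its controls ranged from 0 to 29.5. Ptn (pleiotrophin, a heparin-binding growth factor) moved by 3.47 and by 2.59 without Control 3, which was at 0. Dnah1, an axonemal dynein chain of motile cilia, had 8.99 to 18.1 normalized reads in the controls, 84.4 to 246 in PBC and 95.4 to 179 in PSC and moved by 3.46 (SE 0.37). With a pseudocount of 10 the changes of Nos2, H2-M2 and Ptn were 2.31, 2.38 and 2.19, so the size of a rise from so low a level depends on the pseudocount.

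Among the signals, 18 of 20 genes of NF-kB, chemokines and adhesion were called higher and 9 were shared, while 3 differed between the models. Their median was 1.79 in PBC and 1.70 in PSC. Shared calls numbered 9 without PBC 8, 8 with the GC trend removed and at least 6 whichever library was left out. The monocyte chemokine gene Ccl7 had 29.8, 18.0, 28.1 and 18.1 normalized reads in Control 1 to 4, 448, 295 and 260.3 in PBC 7 to 9 and 369.6, 179.5 and 358 in PSC 11, 13 and 14. It was the largest shared member, with a mean change of 3.68 (SE 0.30) and an interval of the difference of -0.63 to 0.98. Vcam1, the adhesion molecule on which lymphocytes and monocytes arrest, had 1705, 1629, 2133 and 2287 normalized reads in Control 1 to 4, 6841, 8081 and 7833 in PBC 7 to 9 and 7782, 5428 and 6158 in PSC 11, 13 and 14. The lowest model liver was well above the highest control, and the change was 1.98 in PBC and 1.73 in PSC (interval of the difference -0.20 to 0.69). The other shared members were Tnf (2.03 and 2.14), the NF-kB inhibitor Tnfaip3 (2.30 and 1.90), Relb (1.97 and 1.56), Ccl22 (1.72 and 1.52), Icam1 (1.55 and 1.32) and Cxcl16 (0.94 and 1.505), given as PBC and PSC. Ccl5 (2.81 and 1.27) and Cxcl14 (0.45 and 2.23) were called and differed between the models.

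Nfkb2, the precursor of p52 in the non-canonical pathway and itself a known NF-kB target, had 495, 483, 452 and 596 normalized reads in Control 1 to 4, 1763, 1896 and 1847 in PBC 7 to 9 and 1566, 1329.5 and 1995 in PSC 11, 13 and 14. The mean change was 1.77 (SE 0.16) (adjusted p 2.49e-05), with 1.86 in PBC and 1.67 in PSC. A RefSeq start of Nfkb2 is shown because the bases before it hold 3 matches to GGGNNTTCC. Of these, 2 overlap on opposite strands in the first run of capitals. The bases shown lie inside the measured gene model (chr19:46304319-46312385), so this start is downstream of the start of that model. This motif was found in 9.68% of shared rises, 8.33% of shared falls and 7.22% of tested genes.

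Nfkb2 (chr19:46304577-46304736, plus strand): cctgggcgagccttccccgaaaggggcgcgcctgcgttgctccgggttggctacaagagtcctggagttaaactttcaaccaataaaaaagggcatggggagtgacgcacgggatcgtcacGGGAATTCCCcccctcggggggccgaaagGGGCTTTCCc

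In the STAT3 and C/EBP group 5 of 14 genes were called higher, beside 10.3% of all tested genes, with a median of 0.52. Here 3 were shared, beside 3.22% shared rises over all, but 1 without PBC 8 and 1 with the GC trend removed. Cebpb, the C/EBP factor of the acute phase response, had 4912, 7789, 8767 and 4059.5 normalized reads in Control 1 to 4, 20536, 24205 and 39408 in PBC 7 to 9 and 15106, 18880.2 and 21850.4 in PSC 11, 13 and 14. Its mean change was 1.87 (SE 0.25), with 2.15 in PBC and 1.60 in PSC. At a transcript GC content of 67.2% it was among the GC-rich genes, and with the GC trend removed it moved by 1.24, 1.72 in PBC and 0.76 in PSC, outside the 1.5-fold limit. Cebpd moved by 1.21, with overlapping groups, and was outside the limit after the same correction (0.80 and 1.40). Socs3, the feedback inhibitor that STAT3 induces, had 404, 553, 812 and 458 normalized reads in Control 1 to 4, 1019.6, 2469.5 and 1174 in PBC 7 to 9 and 2205, 1768 and 1778 in PSC 11, 13 and 14, a mean change of 1.62 (SE 0.26) and 1.18 after the correction. Stat3 itself (0.52) and the receptor chains Il6st (0.28), Osmr (0.16) and Il6ra (-0.49) were not called. The start of Socs3 is shown for its STAT match.

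Socs3 (chr11:117969367-117969526, minus strand): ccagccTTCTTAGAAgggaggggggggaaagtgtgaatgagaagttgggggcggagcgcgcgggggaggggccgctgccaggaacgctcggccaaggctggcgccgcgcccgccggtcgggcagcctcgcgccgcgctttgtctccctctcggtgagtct

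Of 14 genes of the interferon γ response, 8 were called higher, 5 differed between the models, and 1, Cxcl10, was shared. These shares over all tested genes were 10.3%, 2.24% and, for shared rises, 3.22%. This chemokine gene had 739.6, 469.8, 353 and 643 normalized reads in Control 1 to 4, 1201, 2997 and 1105 in PBC 7 to 9 and 3196, 1372 and 1954 in PSC 11, 13 and 14, a mean change of 1.76 (SE 0.32). The list's median was 1.58 in PBC and 0.13 in PSC.

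Of 17 antigen presentation genes 15 were called higher and 2 differed between the models, with a median of 1.59 in PBC and 0.67 in PSC. The 5 shared ones (4 with the GC trend removed) are all of the class II pathway: H2-Eb1, H2-Ab1 and H2-Aa, which form the peptide-binding dimers, and H2-DMa and H2-DMb1, which load the peptide. H2-Eb1 had 2942, 1832, 3814 and 3202 normalized reads in Control 1 to 4, 15217, 17107 and 15828 in PBC 7 to 9 and 9971, 13999 and 14486 in PSC 11, 13 and 14. All 6 model livers were above the controls, by 2.32 (SE 0.20) in the mean, with a difference between models of 0.34 (interval -0.21 to 0.89). H2-Aa had 4911, 3178, 6634 and 5535 normalized reads in Control 1 to 4, 21041, 27241 and 21245 in PBC 7 to 9 and 14904, 19707 and 20486 in PSC 11, 13 and 14, with changes of 2.23 in PBC and 1.89 in PSC. H2-Ab1 moved by 2.28 and 2.10, H2-DMa by 2.08 and 1.65, and H2-DMb1 by 1.95 and 1.53. Cd74, the invariant chain, moved by 2.58 in PBC and 1.68 in PSC, a difference of 0.90 that did not pass (adjusted p 0.0584) and lies outside the 1.5-fold limit. The class I genes H2-K1 and H2-D1 were called in the mean and are not shared, at 1.20 and 1.16 in PBC and 0.37 and 0.67 in PSC. H2-Ab1, H2-Aa and H2-Eb1 are consecutive tested genes on chromosome 17. The starts of 2 of them are shown for the inverted CAAT box that class II promoters are known to carry, searched as CCAATNNG.

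H2-Aa (chr17:34287824-34287983, minus strand): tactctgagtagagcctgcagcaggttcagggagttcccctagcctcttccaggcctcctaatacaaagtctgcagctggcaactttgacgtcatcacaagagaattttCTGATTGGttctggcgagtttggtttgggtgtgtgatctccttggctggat

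H2-Eb1 (chr17:34305707-34305866, plus strand): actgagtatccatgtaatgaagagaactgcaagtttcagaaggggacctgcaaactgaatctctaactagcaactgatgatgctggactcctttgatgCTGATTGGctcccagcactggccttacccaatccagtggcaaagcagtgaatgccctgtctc

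The same letters were found in 15.9% of shared rises and 16.1% of shared falls, against 18.8% of all tested genes.

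Of 18 genes of scar-associated macrophages 16 were called higher, 6 were shared and 7 differed between the models. The shared members were the lysosomal proteases Ctss, Ctsd and Ctsb, the endosomal glycoprotein gene Cd68, the proton pump subunit gene Atp6v0d2 and the adaptor gene Tyrobp. Ctss had 4889, 3619.8, 3857 and 4751 normalized reads in Control 1 to 4, 11474, 19178 and 14228 in PBC 7 to 9 and 17212, 10725 and 10700.1 in PSC 11, 13 and 14, a mean change of 1.67 (SE 0.20). Cd68 had 836, 587, 723 and 1334 normalized reads in Control 1 to 4, 2509, 2791 and 3058 in PBC 7 to 9 and 3445, 2211 and 3357 in PSC 11, 13 and 14, with 1.74 in PBC and 1.83 in PSC. Tyrobp, which carries the signal of Trem receptors, moved by 1.26 and 1.65, and Fcer1g, its partner for Fc receptors, by 1.81 and 1.65. In contrast Gpnmb moved by 6.34 and 9.59 and Trem2 by 1.72 and 4.07, so the same list holds genes in which PSC exceeded PBC by -3.25 and -2.35 (PBC minus PSC, adjusted p 0.0184 and 0.00232). The mean change of Gpnmb was 7.97, and 7.37 without Control 3, which was at 0.

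Of 13 genes of recruited monocytes 10 were called higher and 6 were shared. S100a4, a calcium-binding protein of motile cells, had 136, 146, 276 and 172 normalized reads in Control 1 to 4, 808, 966 and 865 in PBC 7 to 9 and 1139.6, 1064 and 1454 in PSC 11, 13 and 14. The highest control, 276, was well below the lowest model liver, and the mean change was 2.55 (SE 0.21). Its neighbour S100a6 moved by 2.12 and 2.26, Plac8 by 1.54 and 1.66, and the integrin gene Itgam by 2.06 and 1.78. Ms4a6c and a merged Lyz2 and Lyz1 model, the lysozyme genes, were the other shared members. The pattern receptor gene Tlr2 had 402, 334, 470.0 and 623 normalized reads in Control 1 to 4, 1808, 2946 and 1739 in PBC 7 to 9 and 1579.5, 1427 and 2133 in PSC 11, 13 and 14, a mean change of 2.08 (SE 0.22). Clec4d, a C-type lectin that senses mycobacterial glycolipid and signals through Fcer1g and Card9, had 64.8, 65.5, 84.3 and 27.8 normalized reads in Control 1 to 4, 489.9, 376 and 779 in PBC 7 to 9 and 591, 369 and 677 in PSC 11, 13 and 14. Its changes in PBC and PSC were 3.20 and 3.21, with an interval of the difference of -0.90 to 0.87, and Card9 moved by 1.83 and 2.03. Trem1, an amplifier of myeloid inflammation, moved by 3.18 and 3.17, with a mean of 2.44 without Control 4, and the adjacent Trem3 by 3.57 and 3.10, or 3.60 and 2.85, outside the 1.5-fold limit, with the GC trend removed. Tlr2, Clec4d, Card9, Trem1, Trem3 and Fcer1g were chosen after their values were seen.

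Among Kupffer cell genes, 9 of 13 were called higher and 3 were shared, namely C1qa, C1qb and C1qc, the chains of the complement starter C1q and adjacent on chromosome 4. C1qb had 12858, 8608, 13761 and 11748 normalized reads in Control 1 to 4, 33882, 35386 and 39451 in PBC 7 to 9 and 35063, 29270.5 and 31055 in PSC 11, 13 and 14, a mean change of 1.55 (SE 0.16). C1qa moved by 1.63 and 1.245 and C1qc by 1.68 and 1.11. For C1qc the interval of the difference, 0.11 to 1.02, excludes 0. With the GC trend removed C1qb remained shared, while C1qa (1.30 and 0.60) and C1qc (1.37 and 0.55) did not. The defining Kupffer genes Clec4f and Vsig4 were called at 0.71 and 0.75, while Timd4 (0.32) was not.

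Dendritic cell genes split. Of 10, 4 were called higher and 3 were shared, beside 10.3% and 3.22% of all tested genes. The shared ones were Xcr1, Batf3 and Flt3. Xcr1, the receptor that defines cross-presenting cDC1 cells, had 36.3, 35.9, 51.1 and 66.6 normalized reads in Control 1 to 4, 79.6, 194 and 118 in PBC 7 to 9 and 146, 90.6 and 107 in PSC 11, 13 and 14, a mean change of 1.33 (SE 0.32). Batf3, the factor that these cells need, moved by 1.83 and 1.41 (1.48 and 0.73 with the GC trend removed, outside the limit), and Flt3, their growth factor receptor, by 1.91 and 1.43. Cd207 (langerin) had 902, 501, 938 and 457 normalized reads in Control 1 to 4, 172, 209 and 63.5 in PBC 7 to 9 and 795, 1194 and 1027 in PSC 11, 13 and 14. It moved by -2.32 in PBC and 0.58 in PSC (adjusted p of the difference 0.00318), and its mean was not called (adjusted p 0.0848; -1.04 and called without PBC 8).

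The listed lymphocyte and neutrophil genes held 1 shared member. Over all tested genes 10.3% were called higher and 3.22% were shared rises. Lists of 7 to 15 genes are too short to tell 0 or 1 shared gene from that share. Neutrophil genes were called higher in 12 of 13 cases with 0 shared, and their median was 5.15 in PBC and 2.52 in PSC. T cell genes were called higher in 6 of 15, with 0 shared and medians of 1.57 and -0.16. B and plasma cell genes were called higher in 2 of 7, with 0 shared. Of 9 cytotoxic cell genes, 3 were called higher and 1, Gzma (granzyme A), was shared. It had 218, 155, 227 and 126 normalized reads in Control 1 to 4, 433, 509.8 and 432 in PBC 7 to 9 and 499, 296 and 426 in PSC 11, 13 and 14, a mean change of 1.27 (SE 0.23). The summed level of the T cell list was 1734 to 3313 in the controls, 4437 to 5595 in PBC and 1515 to 1596 in PSC, and that of the neutrophil list 489 to 6698, 42541 to 129694 and 9815 to 19793. The part of these cells in the shared genes was not tested.

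Of 25 matrix genes 20 were called higher, 11 differed between the models and 6 were shared: Thbs1, Col6a1, Col6a2, Mmp14, Col5a1 and Bgn. Thbs1 (thrombospondin 1, an activator of latent TGF-β) had 7.77, 11.6, 7.66 and 13.9 normalized reads in Control 1 to 4, 47.2, 90.8 and 65.6 in PBC 7 to 9 and 75.0, 76.0 and 88.7 in PSC 11, 13 and 14, a mean change of 2.75 (SE 0.34). Mmp14, the membrane collagenase, had 4245, 6394, 2726 and 2999 normalized reads in Control 1 to 4, 11009, 8514 and 13001 in PBC 7 to 9 and 11587, 10245 and 10401 in PSC 11, 13 and 14, and the models moved by 1.47 and 1.47. Col6a1 and the adjacent Col6a2 moved by 1.255 and 1.03 in PBC and by 1.82 and 1.46 in PSC, and with the GC trend removed by 0.87 and 0.73 and by 1.62 and 1.44, outside the limit. For Col6a1 the interval of the difference before this removal, -1.03 to -0.10, excludes 0. Thbs1 was then at 2.52 and 3.17, also outside it, and the list held 2 shared genes. Col1a1, the main fibrillar collagen gene, moved by 2.80 and 5.24 (adjusted p of the difference 0.0121), and Timp1 by 4.28 and 6.14 (0.0374). Of 12 stellate cell and myofibroblast genes 3 were called higher and 0 were shared, beside 10.3% and 3.22% of all tested genes. Acta2 was at 1.01 and 2.26.

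In the TGF-β pathway 3 of 14 genes were called higher and 2 lower, beside 10.3% and 5.92% of all tested genes. A list of 14 is too short to set such counts apart from these shares. The ligand gene Tgfb1 had 394, 329.9, 322 and 479 normalized reads in Control 1 to 4, 918, 1024 and 1153 in PBC 7 to 9 and 843, 650.2 and 849.6 in PSC 11, 13 and 14. The groups did not overlap and the change was 1.45 in PBC and 1.04 in PSC. The receptor gene Tgfbr1 had 309.6, 438, 309 and 349.9 normalized reads in Control 1 to 4, 104, 473 and 55.0 in PBC 7 to 9 and 76.9, 107 and 98.6 in PSC 11, 13 and 14. PBC 8 lay above every control, and the fall of -1.60 became -2.04 without PBC 8 and missed the threshold without Control 1, 2 or 4, PBC 7 or PSC 11 or 14 (adjusted p 0.0545 to 0.0708).

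Cytoskeletal and annexin genes were called higher in 14 of 18, with 4 shared: Anxa1, Coro1a, Vim and Tmsb4x. Anxa1, an inhibitor of leukocyte adhesion, had 741, 506, 858 and 690.0 normalized reads in Control 1 to 4, 1823, 2186 and 2205 in PBC 7 to 9 and 2655, 2617 and 3505 in PSC 11, 13 and 14, a mean change of 1.83 (SE 0.18). It moved by 1.59 in PBC and 2.08 in PSC. The interval of the difference, -0.98 to -0.004 and not adjusted over genes, excludes 0, and every PSC liver lay above every PBC liver. Coro1a, a leukocyte actin regulator, moved by 1.74 and 1.71. Vim (vimentin) moved by 1.26 and 1.83, with an interval of the difference of -1.10 to -0.04 that also excludes 0. With the GC trend removed Vim moved by 1.29 and 1.92, outside the limit.

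Of 17 cholangiocyte genes 12 were called higher, 5 differed between the models and 2 were shared. Those are Krt8 and Krt18, the keratin pair that hepatocytes also express. Krt8 had 12115, 11133, 9748 and 8112 normalized reads in Control 1 to 4, 29217, 21718 and 31842 in PBC 7 to 9 and 36973, 26112 and 36731 in PSC 11, 13 and 14, and Krt18 had 14628, 12608, 11138 and 8089.9 normalized reads in Control 1 to 4, 35849, 23319 and 33299 in PBC 7 to 9 and 34315, 27878 and 36998 in PSC 11, 13 and 14. The mean changes were 1.56 (SE 0.18) and 1.47 (SE 0.20), and the intervals of the differences were -0.77 to 0.22 and -0.65 to 0.42. The duct keratin genes Krt7 and Krt19 were at 0.49 and 1.13 in PBC and 2.00 and 2.11 in PSC, were called in the mean and are not shared. The list median was 0.60 in PBC and 2.11 in PSC.

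Among 18 proliferation genes 8 were called higher, 1 lower and 3 were shared. These shares over all tested genes were 10.3%, 5.92% and, for shared rises, 3.22%. Mki67, expressed in cycling cells, had 33.7, 33.4, 35.8 and 15.3 normalized reads in Control 1 to 4, 191, 98.8 and 203 in PBC 7 to 9 and 253, 84.1 and 177 in PSC 11, 13 and 14, a mean change of 2.44 (SE 0.37) with 2.44 in PBC and 2.43 in PSC. PSC 13 and PBC 8 were the lowest of the model livers for Mki67 and Top2a. Top2a, the replication topoisomerase, moved by 1.70 and 1.89, and Aurkb, a mitotic kinase, by 1.32 and 1.69, the last not called without Control 1 or 2 (adjusted p 0.0531 and 0.0602). Ccnd1, the called fall, was at -0.55 and -1.20. The genes called higher numbered 5 to 11 and the shared ones 1 to 5 whichever library was left out.

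Of 13 stress response genes 5 were called higher and 3 were shared, beside 10.3% and 3.22% of all tested genes. The lists in this paragraph are short, and whether their counts exceed these shares was not tested. The shared stress response genes were 0 to 5 whichever library was left out, and 1 with the GC trend removed. Of 12 genes of p53 and senescence 4 were called higher, and 1 was shared. Gdf15, a cytokine of mitochondrial and integrated stress, had 1102, 2020.4, 2876 and 471 normalized reads in Control 1 to 4, 6769, 28953 and 17819 in PBC 7 to 9 and 17126, 15186 and 6784 in PSC 11, 13 and 14. All model livers were above the controls and the mean change was 3.36 (SE 0.49). Hmox1 (heme oxygenase 1) had 2198, 1608, 1709 and 3826 normalized reads in Control 1 to 4, 5334, 7439 and 7825 in PBC 7 to 9 and 7739.9, 4686 and 6108 in PSC 11, 13 and 14, with 1.63 in PBC and 1.46 in PSC. It was the 1 shared gene of 9 NRF2 targets, of which 3 were called. Ddit3 (CHOP) moved by 0.84 and 1.38, with an interval of the difference of -1.08 to -0.005 that excludes 0. Chac1 and Sdf2l1 met the rule too, but Chac1 was called in 7 of 22 alternatives, and Sdf2l1 missed the threshold without Control 1 or 4, PBC 7, or PSC 11 or 14 (adjusted p 0.0550 to 0.0827), with edgeR (0.0629) and with the GC trend removed (0.66, adjusted p 0.136). Chac1 was at 1.11 with the GC trend removed (adjusted p 0.11). Cdkn1a (p21) had 4032, 10016, 2654 and 205 normalized reads in Control 1 to 4, 6048, 4810.0 and 8864 in PBC 7 to 9 and 9253, 7896 and 11750.2 in PSC 11, 13 and 14. Its mean change of 1.84 (SE 0.76) was not called (adjusted p 0.11), was 2.58 and called without Control 2, and was 0.71 without Control 4.

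The metallothionein genes Mt1 and Mt2, adjacent on chromosome 8 and inducible by metals and cytokines, were shared at 2.16 and 3.01. Mt2 had 29426, 12845, 23412 and 653 normalized reads in Control 1 to 4, 78749, 42674 and 106426 in PBC 7 to 9 and 68066, 46095 and 107407 in PSC 11, 13 and 14. Control 4 was far below the other controls, and without it the changes were 1.33 for Mt1 and 1.76 for Mt2. With the GC trend removed Mt1 was at 2.22 and 1.58, outside the 1.5-fold limit. Both missed the threshold without PBC 9 or PSC 14 and Mt2 also without PBC 7 or PSC 11 (adjusted p 0.0501 to 0.0602).

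Among 21 genes of secreted hepatocyte proteins that are not on the acute phase list, 2 complement genes were shared. Shared rises were 3.22% of all tested genes, and a list this short does not set 2 apart from that share. C9, the pore-forming component, had 27995, 29247, 27946 and 18999.5 normalized reads in Control 1 to 4, 51004, 58587 and 69348 in PBC 7 to 9 and 78631, 59101 and 56411 in PSC 11, 13 and 14, a mean change of 1.26 (SE 0.18) with an interval of the difference of -0.62 to 0.39. C8a moved by 1.74 and 1.19. C6, of the same complex and chosen after its values were seen, had 1245, 994, 1229 and 1476 normalized reads in Control 1 to 4, 4140.5, 3669 and 4264 in PBC 7 to 9 and 6941, 4238 and 4291 in PSC 11, 13 and 14 and moved by 1.71 and 2.03.

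**Figure D4:**
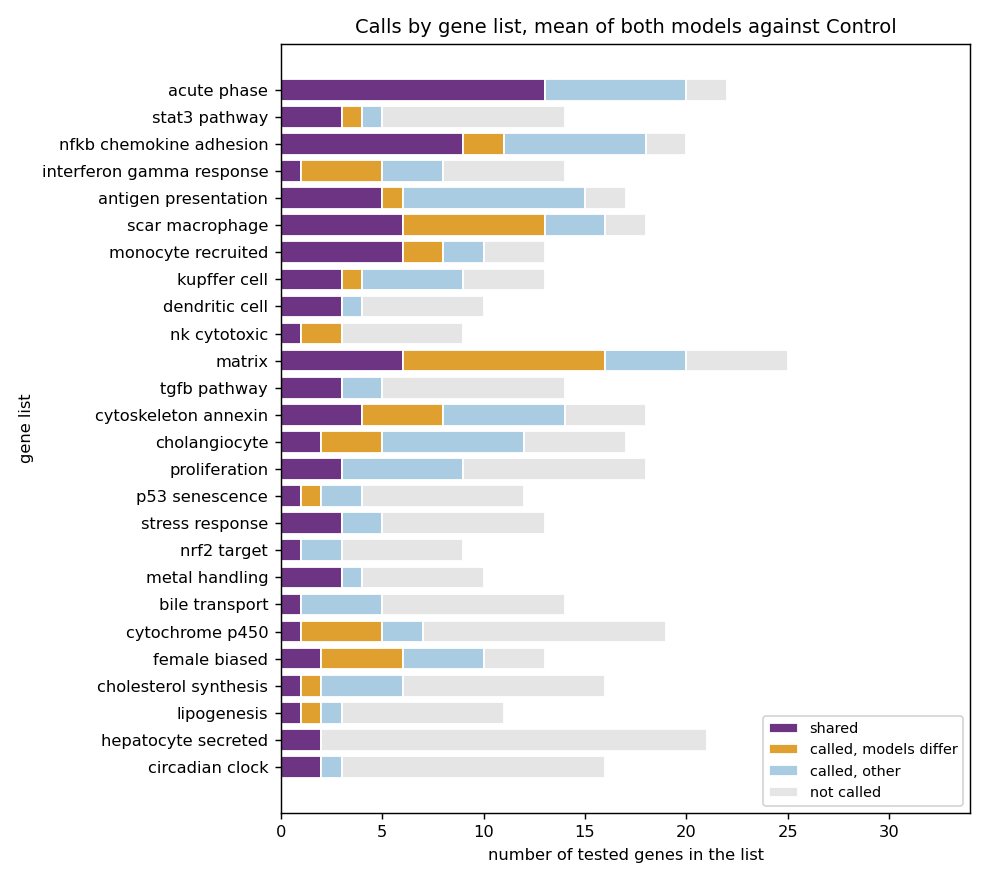
Number of tested genes (x axis) in each of the 26 gene lists with at least 1 shared gene (y axis), split into shared, called with a difference between the models, called otherwise, and not called. Acute phase genes have the most shared members, 13 of 22, and matrix genes the most that differ among called genes, 10 of 25.

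Of the 40 lists, 8 held a shared fall, 1 or 2 each. The falls described next are the 10 largest among those with separate groups, an established symbol and a mean of at least 50 normalized reads in the higher group. In these PBC 8 was the model liver nearest to the controls in 7.

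Tfrc, the transferrin receptor gene through which cells take up iron, had 203, 266, 271 and 419 normalized reads in Control 1 to 4, 89.5, 151 and 23.3 in PBC 7 to 9 and 53.5, 67.9 and 57.5 in PSC 11, 13 and 14. All model livers were below all controls, and the change was -2.12 (SE 0.42) (adjusted p 0.00496), with -2.02 in PBC and -2.22 in PSC. It was -2.40 without PBC 8 and -1.65 with the GC trend removed. Its transcript, at 39.8% GC, is in the range of the falls.

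Hao2, a peroxisomal hydroxyacid oxidase gene, had 3611, 4203, 5691 and 8984 normalized reads in Control 1 to 4, 607, 3059 and 1187 in PBC 7 to 9 and 501, 1307 and 1308 in PSC 11, 13 and 14. PBC 8 lay near the controls while the other 5 model livers were far below. The mean change was -2.25 (SE 0.42), and -2.55 without PBC 8. Azin1, an inhibitor of the antizyme that limits polyamine synthesis, had 6227, 4138, 7019.8 and 8858 normalized reads in Control 1 to 4, 2144, 3669 and 1344 in PBC 7 to 9 and 1845, 2122 and 1813 in PSC 11, 13 and 14, a mean change of -1.62 (SE 0.26) and -1.15 with the GC trend removed. Slc25a16, a mitochondrial carrier gene, had 2330.3, 1942, 3004 and 2959.9 normalized reads in Control 1 to 4, 604, 1936 and 753 in PBC 7 to 9 and 729, 862 and 666 in PSC 11, 13 and 14. PBC 8 was next to the lowest control, and the change of -1.57 became -1.82 without it. Spred1, an inhibitor of Ras signaling, showed the same order, with 201 to 308 normalized reads in the controls, 191 in PBC 8 and no other model liver above 102.

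In the other 5 the mean changes were -2.32 for Nup62cl, -2.23 for the potassium channel gene Kcnk10, -1.96 for Pcp4l1, -1.70 for the RNA polymerase III subunit gene Polr3g and -1.66 for the glutamate transporter gene Slc17a8. With the GC trend removed all 10 remained called, from -1.15 for Azin1 to -2.21 for Pcp4l1, while Nup62cl (-1.74 and -2.42), Kcnk10 (-2.32 and -1.67) and Pcp4l1 (-1.85 and -2.57) left the 1.5-fold limit.

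**Figure D5:**
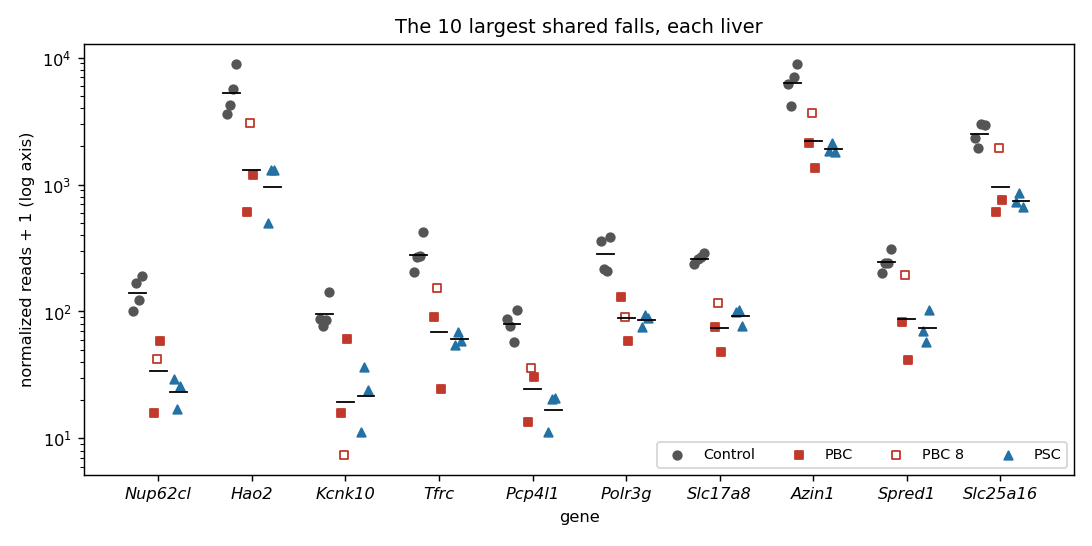
Normalized reads + 1 of the 10 largest shared falls among those with separate groups, an established symbol and a mean of at least 50 normalized reads (log y axis) in each liver, with the line at the mean of log2 values per group. The separation of models and controls was a condition of the choice. PBC 8, drawn with an open symbol, is the highest model liver in 7 of them.

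The next 3 falls were chosen after their values were seen, and PBC 8 was below all controls in each. P2ry1, a purinergic receptor gene, had 832, 895, 945 and 1045 normalized reads in Control 1 to 4, 376, 389 and 315 in PBC 7 to 9 and 345, 389.8 and 314 in PSC 11, 13 and 14. The groups were far apart and each narrow. The change was -1.37 in PBC and -1.41 in PSC, with an interval of the difference of -0.41 to 0.49, -1.42 in the mean without PBC 8 and -1.20 with the GC trend removed. Zfp882, a zinc finger gene, had 291, 264, 232 and 367 normalized reads in Control 1 to 4, 94.5, 126 and 93.1 in PBC 7 to 9 and 91.0, 113 and 83.8 in PSC 11, 13 and 14 and moved by -1.45 and -1.57. Fmo2, a flavin monooxygenase gene, moved by -1.49 and -1.57.

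Metabolic lists held 0 to 2 shared genes each. Over all tested genes 10.3% were called higher, 5.92% were called lower, 3.22% were shared rises and 1.48% were shared falls. The lists here and in the next paragraph are too short to set such small counts apart from these shares. Of 19 cytochrome P450 genes 4 were called higher and 3 lower, and 1, Cyp2c39, was a shared fall. It had 1372, 720.1, 909 and 997 normalized reads in Control 1 to 4, 400.4, 475 and 289.9 in PBC 7 to 9 and 295, 399.5 and 379.6 in PSC 11, 13 and 14, a mean change of -1.40 (SE 0.22). Of 14 bile transport genes 2 were called higher and 3 lower. The shared one was the uptake transporter gene Slco1a4 (-0.90 and -1.21), whose call was lost without Control 1 or 4, PBC 7 or 9 or PSC 11 (adjusted p 0.0589 to 0.0725) and with the GC trend removed (0.0756). Of 9 bile acid synthesis genes 1 was called lower and 0 were shared. Cyp7a1, the rate-limiting enzyme of bile acid synthesis, had 6239.7, 4469.5, 1701 and 15962 normalized reads in Control 1 to 4, 1763, 4514 and 1498 in PBC 7 to 9 and 3398, 1134 and 638 in PSC 11, 13 and 14. Its change of -1.58 (SE 0.57) was not called (adjusted p 0.0724), but was -2.12, -1.82 and -1.91 and called without Control 3, PBC 8 and PSC 11.

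Of 13 genes known to be higher in female liver 10 were called lower, beside 5.92% over all tested genes, and 2, Hao2 and Acot3, were shared. The list median was -0.81 in PBC and -2.41 in PSC. Acot3, a peroxisomal thioesterase gene, had 3105, 3961, 1229 and 10762 normalized reads in Control 1 to 4, 1114, 1362 and 1145 in PBC 7 to 9 and 1106, 1649.8 and 1127 in PSC 11, 13 and 14. Control 3 lay within the model range, and the call of -1.53 was lost without any of 7 libraries (adjusted p 0.0523 to 0.0632). Of 7 genes known to be higher in male liver 3 were called lower, 1 higher and 0 were shared, with a median of -0.16 in PBC and -0.95 in PSC. Their summed level was 25837 to 80100 normalized reads in the controls, 53441 to 178194 in PBC and 472006 to 551752 in PSC. A sum follows the most abundant members, so it does not describe the list as a set, whose PSC median was below 0. The sex of the mice is not given, and its part was not tested. Of 16 cholesterol synthesis genes 6 were called lower and 1, Idi1 (-0.92 and -1.19), was shared, a call lost in 10 alternatives, among them the removed GC trend (-0.80, adjusted p 0.124). Of 11 lipogenesis genes 3 were called lower and 1, the malic enzyme gene Me1 (-1.16 and -1.62), was shared, at -0.68 and not called with array quality weights. The 13 fatty acid oxidation genes had a median of -0.10 and no shared member. Of 16 clock genes 2 were called higher and 1 lower. Nfil3, a repressor of the clock output, moved by 1.51 and 1.24. Per2 moved by -1.65, with Control 4 far above the other livers, and by -1.07 without it. The call of Per2 was lost without Control 2 or 4, PBC 7 or 9, or PSC 11 or 14. Sinusoidal endothelial genes were called higher in 1 of 16 and lower in 0, but lower in 5 without PBC 8.

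Values close to the 1.5-fold limit are given without a test. Just inside it, PBC and PSC were at -2.55 and -1.96 for Rlf, 1.60 and 1.02 for Cd40 and -1.003 and -1.59 for Ankrd28. Just outside it they were at 0.80 and 1.39 for Hmgn3, -0.79 and -1.37 for Zfp568 and -0.87 and -1.45 for Stard4. In Rlf and Ankrd28 PBC 8 lay within the controls, and with the GC trend removed Rlf was at -2.30 and -1.33 and Ankrd28 at -0.84 and -1.01. Of 22 alternatives the call of Rlf was lost in 13, that of Cd40 in 12 and that of Zfp568 in 11.

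The opposite of sharing is shown by the genes with the largest difference between the models. Sprr1a, an epithelial cornified envelope gene, had 2.59, 0, 0 and 0 normalized reads in Control 1 to 4, 4.97, 6.37 and 33.9 in PBC 7 to 9 and 2171, 1076 and 2955 in PSC 11, 13 and 14. PSC livers stood far above the rest. Duoxa2, the maturation factor of a dual oxidase, was at 0 in all controls and PBC livers and at 29.1 to 117 normalized reads in PSC. Sult3a2, a sulfotransferase gene, had 406 to 922 normalized reads in the controls, 105 to 744 in PBC and 0 to 15.0 in PSC, and Ms4a3, of granulocyte precursors, 0 to 2.78, 134 to 339 and 0 to 11.5. These were chosen for their difference, which is a description.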

How the data were processed

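Poly(A) RNA of 10 mouse livers (4 Control, 3 PBC, 3 PSC) was sequenced. The deposited signal values are gene counts that the authors divided by DESeq2 size factors. STAR 2.4.0, SAMtools, Picard, FastQC and DESeq2 and the build mm10 are named in the submitters' processing notes, and the gene models are FASTDB, per the file headers. No read counter, strand setting or rule for multimapping reads is named there or in the labels. Whole reads were recovered from the steps of the values (within 0.1), at 38.3 to 95.4 M per library. Of 59408 gene models, 18390 reached 10 in 3 or more libraries and were tested with limma 3.58.1 (R 4.3.3, trend) on log2(value + 1), so fold changes of low genes are understated. All 10 libraries entered 1 fit, and p-values were Benjamini-Hochberg adjusted over all tested genes. The labels do not say whether numbered mice shared a cage or day. edgeR 4.0.16 and DESeq2 1.42.0 on recovered reads, other pseudocounts, filters and scalings, array weights, 1 joint model group, and leaving out each library were alternatives. The method was also run on simulated counts. These held no GC trend and no liver that stood apart from its group, so that run does not cover these features of the data. Named genes were the 10 largest shared rises and falls with separate groups and a mean of at least 50 normalized reads in the higher group, up to 3 shared genes per list with the smallest adjusted p, 10 fixed genes, 3 genes on each side of the 1.5-fold limit and the 2 largest differences each way. The 118 named genes of the closing sections also include genes added after their values were seen, some of them not described above. The members and lists were chosen with earlier results of these data known. Promoters are from RefSeq (GRCm38.p6), matched for 595 of 767 shared symbols.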

Additional observations from a re-analysis of the deposited data

Results flagged for a closer look

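In 6 of the 118 named genes 1 control stood apart from the other 3 by Dixon's criterion at the 95% level, which chance meets in about 1 of 20 groups. They were Control 3 for Saa3 (2296.5 normalized reads), Control 1 for Sprr1a (2.59), and Control 4 for Kcnk10 (141.61), Mki67 (15.27), C9 (18999.5) and Per2 (1388.34).

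The difference between PBC and PSC passed the test (limma, adjusted p under 0.05) in 9 named genes. Of these, Sprr1a, Duoxa2, Sult3a2 and Ms4a3 were named for the size of this same difference, so their passing is no separate result. Duoxa2 met the filter through the PSC livers alone, and Ms4a3 was high in the PBC livers alone. PBC minus PSC was -3.25 for Gpnmb, -2.35 for Trem2, -2.43 for Col1a1, -1.86 for Timp1, -2.90 for Cd207, -7.37 for Sprr1a and -6.15 for Duoxa2, and 5.68 for Sult3a2 and 5.64 for Ms4a3, in log2(value + 1). Duoxa2 was at 0 in PBC, so its fitted value depends on the pseudocount and is no bound.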

How the results depend on the processing

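Of 2587 values recomputed for the 118 named genes, 2466 kept direction and side of the threshold, 113 lost the call, 8 gained it and 0 changed direction. Most of these genes were chosen for large changes or small adjusted p in these same data. Some were added after their values were seen, and all of those added kept call and direction in every alternative. The choice itself favours values that keep call and direction, so they do not measure how stable the other genes are. The counts over all tested genes moved more, and the cause was not tested. Array quality weights gave 3726 calls higher, 3122 lower, 674 shared falls, 656 bounded genes and 705 that differ between models. DESeq2 gave 1841 lower and 566 that differ, 1 joint group of 6 livers 701 and 89, and a pseudocount of 10 gave 343 that differ. A narrower limit on the ratio of the models gave 347 shared rises and 153 falls, and a mean change of 0.5 gave 1080, 723 and 1110 bounded. Requiring a call in each model left 100 shared falls. Leaving out 1 library gave 1272 to 2461 calls higher, 420 to 2230 lower, 450 to 647 shared rises, 112 to 715 shared falls, 186 to 592 bounded genes and 64 to 272 that differ. With the GC and length trend removed, chosen after seeing the data, 445 shared rises and 202 falls were found. The median of all tested genes was 0.03, -0.01 with TMM and -0.05 with equal totals. No paired analysis was possible because the groups share no replicate numbers.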

Other observations

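Genes named as zinc finger proteins were examined as a group after the values were seen. Of 360 tested, 72 were called lower (20%, against 5.92% of all tested genes) and 10 higher, and 21 were shared falls and 3 shared rises. Their median change was -0.39, with -0.39 in PBC and -0.33 in PSC, against 0.03 over all tested genes. With the GC and length trend removed, 47 of 348 were called lower (13.5%, against 8.30% of all genes in that fit), 10 were shared falls, and the median was -0.24 against -0.01.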
